A study of Mus musculus with 11 samples.

Results

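The genes described here are imprinted genes, which mammalian cells express from a single parental copy in at least some tissues. They were chosen as the rows of the deposited gene counts table whose symbol was in a fixed set of 43 imprinted genes from 17 chromosomal clusters. Of these, 36 had a row among the 21684 genes of the table, and the other 7 (H19, Airn, Kcnq1ot1, Meg3, Rian, Mirg and Zrsr1, most of them noncoding RNAs) were not analysed here. The cells were NIH/3T3, an established and immortalised line of mouse embryonic fibroblasts. They were grown at low density and then kept without serum for 24 h, a treatment under which these cells leave the cell cycle and grow a primary cilium. The 11 RNA-seq libraries came from unmodified cells (WT, 2 libraries) and from knockouts of Xap5, Nono and Sox5 (Xap5 KO, Nono KO and Sox5 KO, 3 libraries each), so that every group shared the cell line and the serum starvation. Xap5, whose mouse symbol is Fam50a, encodes a nuclear protein linked to transcription and splicing, Nono an RNA- and DNA-binding paraspeckle protein, and Sox5 a transcription factor of the SoxD group. Each knockout was taken as 1 cell line, because the labels name no separate clones, and the labels do not say that replicates came from separate cultures, so p-values measure only the spread between these libraries.

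An imprint is laid down in the egg or the sperm as DNA methylation of a control region, and it is kept in every body cell through each division. The methylated and the unmethylated parental copies then use the genes of a whole cluster differently, through an insulator bound by Ctcf, through a noncoding RNA, or through the methylated promoter itself. Many imprinted genes act on fetal growth, with paternally expressed genes such as Igf2 promoting it and maternally expressed genes such as Igf2r and Cdkn1c restraining it. The counts analysed here held no information on the parental copy, so each value is the sum of both.

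The libraries held 30205878 to 43498383 counts. The targeted genes were each below WT in the libraries that carry their name, with 7.49 to 7.91 CPM (the count of a gene relative to the scaled total of its library) of Fam50a in Xap5 KO against 62.9 to 64.8 in WT, and 27.6 to 34.0 CPM of Nono in Nono KO against 351 to 357 in WT. Sox5 itself was at 12.6 to 13.9 CPM in Sox5 KO against 45.9 to 49.7 in WT, and it was as low or lower in Xap5 KO (11.9 to 15 CPM) and Nono KO (7.01 to 8.75 CPM). Of 14 fibroblast markers, 13 were read in WT and 14 in each knockout, where a gene is called read in a group if every library of the group holds at least 1 CPM. Their summed level was 25082 to 25233 CPM in WT, 19600.4 to 20974 in Xap5 KO, 50915 to 55799 in Nono KO and 21517 to 21919 in Sox5 KO, and none of 7 epithelial markers was read in any group. The 4 Y-linked genes listed separated all knockout libraries from WT, with a summed level of 196 to 201 CPM in WT and 0 to 0.390 CPM in the knockouts. Every comparison with WT below carries that difference between the cells, and its part in the results was not tested.

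A gene was said to be at the floor in a group if every library held at most 3 counts, and low if it was neither read nor at the floor. Of the 36 imprinted genes, 22 were read, 6 were low and 8 were at the floor in WT. Xap5 KO and Nono KO each read 20 genes and had 9 at the floor, and Sox5 KO read 21 and had 11 at the floor. In every group 18 genes were read, and Magel2, Cdkn1c, Phlda2 and Dio3 were at the floor throughout, with 0 counts in all 11 libraries. The remaining 14 changed their state between groups or stayed low. Per kilobase of the longest transcript, the highest level in WT was that of Dlk1 (334 CPM per kb), followed by Gnas (249), Cd81 (153), Impact (104) and Grb10 (97.2). Gnas was first and Cd81 second in all 3 knockouts, where Dlk1 was at 57 CPM per kb in the Xap5 knockout, 68.6 in the Nono knockout and 42.9 in the Sox5 knockout.

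**Figure D1:**
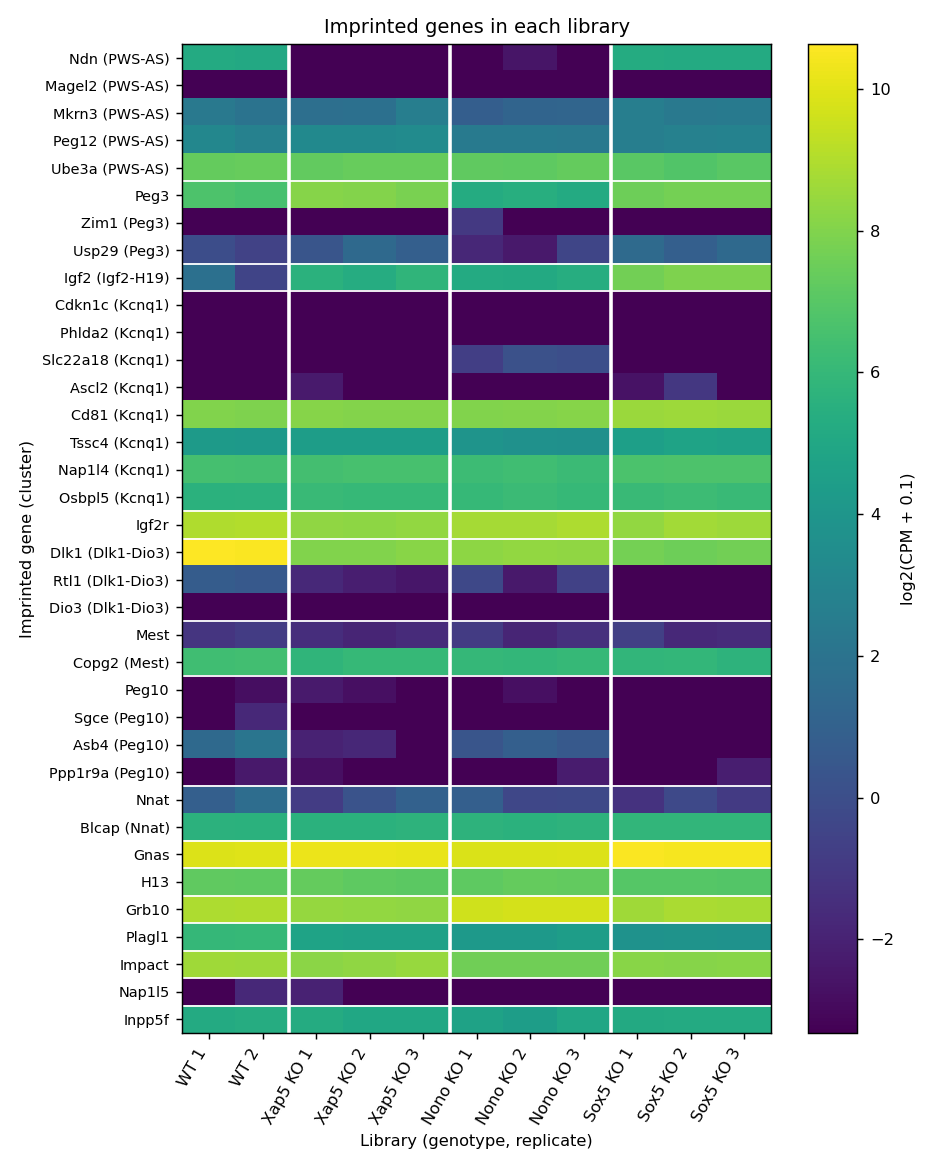
Level of the 36 imprinted genes in each of the 11 libraries, as log2(CPM + 0.1), ordered by cluster, with white lines between clusters and between genotypes. Ndn is dark in all libraries of Xap5 KO and Nono KO and bright in WT and Sox5 KO, and Igf2 is darkest in WT.

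The filter on low counts kept 26 of the 36 genes for testing. In Xap5 KO, 4 of the 26 were higher and 9 lower than in WT, 13 in all, beside 45.5% of all 13332 tested genes. In Nono KO, 4 were higher and 12 lower (61.5%), beside 48.6% of all tested genes. In Sox5 KO, 9 were higher and 11 lower (76.9%), beside 60.9%. The shares called among all tested genes were 23.2% higher and 22.3% lower in Xap5 KO, 23.5% and 25.1% in Nono KO, and 30.6% and 30.3% in Sox5 KO. Since so large a part of the transcriptome differed from WT, a share of this size says little about imprinted genes as a group. Changes of at least 2-fold covered 7 of the 26 genes in the Xap5 knockout (26.9%, beside 10.3% of all tested genes), 8 in the Nono knockout (30.8%, beside 11.2%) and 8 in the Sox5 knockout (30.8%, beside 17.2%). The median log2 change of the 26 was -0.03 in the Xap5 knockout, -0.44 in the Nono knockout and -0.14 in the Sox5 knockout, against 0.00, -0.02 and -0.01 over all tested genes. Some of the 26, such as Slc22a18 and Asb4, passed the filter only through the groups that expressed them, so these counts are a description.

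The 12 tested genes known to be expressed from the paternal copy and the 9 known to be expressed from the maternal copy in at least some tissues are described apart. The maternal list includes Ube3a, imprinted in neurons only, and Cd81, Tssc4, Nap1l4 and Osbpl5, imprinted in placenta. These genes need not be expressed from a single copy in fibroblasts, so the lists do not compare the parental copies in these cells. Among the paternally expressed genes, 6, 7 and 7 changed by at least 2-fold in the Xap5, Nono and Sox5 knockouts. Among the maternally expressed genes 1 did in each, Asb4 in Xap5 KO and Sox5 KO and Slc22a18 in Nono KO. Over all tested genes 10.3%, 11.2% and 17.2% did, so that 1 of 9 (11.1%) was near or below this background. Both Asb4 and Slc22a18 passed the filter only through the groups that expressed them. The median size of the log2 difference was 1.33, 1.27 and 1.36 for the paternally expressed genes, 0.23, 0.40 and 0.46 for the maternally expressed genes, and 0.32, 0.34 and 0.50 over all tested genes. No test was made of the difference between these small lists, and the 3 comparisons share the WT libraries.

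**Figure D2:**
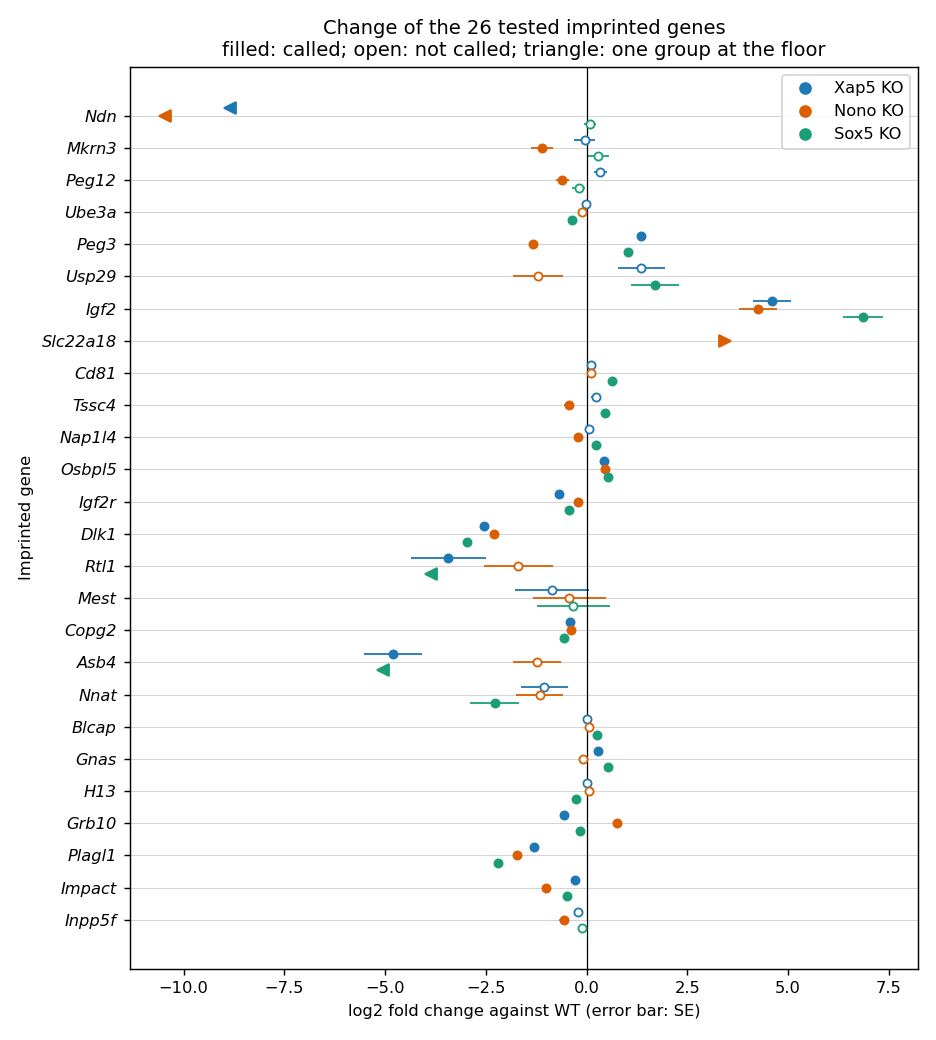
Log2 change against WT of the 26 tested imprinted genes in each knockout, with the standard error as bars, filled points for genes called at an adjusted p under 0.05, open points for the rest, and triangles for the bound or ratio where a group was at the floor. Ndn lies far below 0 in Xap5 KO and Nono KO and at 0.08 in Sox5 KO, and Igf2 lies above 0 in all 3.

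The Prader-Willi/Angelman domain of chromosome 7 held a gene that was read in WT and at the floor in part of the knockouts. Ndn encodes necdin, a growth-restraining protein of the MAGE family, and it was expressed in WT and Sox5 KO but at the floor in Xap5 KO and Nono KO. Its level was 36.8 and 34.7 CPM in the WT libraries and 38.8, 36.9 and 37.4 CPM in Sox5 KO. All 3 Xap5 KO libraries held 0 counts of Ndn, and the Nono KO libraries held 0, 3 and 0 counts, against 1484 and 1527 counts in WT. The groups with and without Ndn did not overlap. Against the floor of 3 counts per library, the level in Xap5 KO was at least 462-fold lower than in WT (edgeR adjusted p = 6.3e-16), and the ratio of its WT to its Nono KO level was 1401-fold, with a 95% counting interval of 479 to 6799 (edgeR adjusted p = 6.9e-16). In Sox5 KO its log2 change was 0.08 (SE 0.143, edgeR adjusted p = 0.664), which was not called. Xap5 KO and Nono KO each differed from Sox5 KO as well (edgeR adjusted p = 5.13e-16 and 2.55e-16). Without Nono KO replicate 2, the only one with counts of Ndn, the remaining Nono KO libraries were at 0 counts and the call against WT was kept (edgeR adjusted p = 1.22e-14).

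In Xap5 KO neither Mkrn3, Peg12 nor Ube3a was called, and in Nono KO Mkrn3 and Peg12 fell as well. Magel2, which encodes a MAGE protein of the same family, had 0 counts in every library. Mkrn3, which encodes a ubiquitin ligase known as a brake on puberty, was at 4.94 and 3.93 CPM in WT, 3.37, 3.43 and 6.05 in the Xap5 knockout, 1.70, 2.17 and 2.26 in the Nono knockout and 6.12, 4.95 and 5.10 in the Sox5 knockout. All Nono KO libraries lay below all others, and Mkrn3 fell in Nono KO with a log2 change of -1.11 (SE 0.272, edgeR adjusted p = 0.00181). It was not called in Xap5 KO (-0.05, edgeR adjusted p = 0.906) or in Sox5 KO (0.28, edgeR adjusted p = 0.378). Peg12, also called Frat3 and related to the Wnt regulators of the Frat family, fell in Nono KO with a log2 change of -0.60 (edgeR adjusted p = 0.00556), a call that was lost without WT replicate 1 (-0.42, adjusted p = 0.121). Ube3a encodes the E3 ligase lost in Angelman syndrome and is imprinted in neurons only. It stood at 115 to 169.7 CPM in all libraries and fell in Sox5 KO with a log2 change of -0.36 (SE 0.0715, edgeR adjusted p = 0.000179). In Nono KO it was called under scaling by library totals only (-0.28, adjusted p = 0.00448). Its exons overlap Snhg14 on the opposite strand, whose reads cannot be told apart from its own without strand information.

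The genes around Ndn were measured at the same depth. Snrpn, whose promoter carries the imprinting centre of the domain and whose transcript is paternal, was at 4.32 and 5.72 CPM in WT and 5.51, 7.57 and 7.57 in Xap5 KO. Snrpn was at 3.85, 2.95 and 3.67 CPM in Nono KO, where it fell with a log2 change of -0.53 (SE 0.201, edgeR adjusted p = 0.0352), and at 11.8, 12.8 and 12.6 CPM in Sox5 KO, where it rose by 1.31 (SE 0.202, edgeR adjusted p = 9.72e-06). Atp10a, which lies next to Ube3a and encodes a lipid flippase, rose in Xap5 KO (0.77, edgeR adjusted p = 2.44e-07) and Nono KO (0.97, edgeR adjusted p = 6.89e-09), the 2 groups at the Ndn floor, and was not called in Sox5 KO (-0.09, edgeR adjusted p = 0.391). Of the 10 tested genes nearest to the domain, 5 on each side, 5 were higher and 2 lower in Xap5 KO, 1 was higher and 3 lower in Nono KO, and 3 were higher and 3 lower in Sox5 KO. Those higher in Xap5 KO include Gabrg3 (mean 0.303 CPM there) and Oca2 (0.563 CPM), both at 0 CPM in WT. Oca2 was also among those higher in Sox5 KO (0.437 CPM). Both genes passed the filter on low counts only through knockouts that expressed them, so the counts of higher genes are a description. Over all tested genes 23.2% were higher and 22.3% lower in Xap5 KO, 23.5% and 25.1% in Nono KO, and 30.6% and 30.3% in Sox5 KO, so that the Sox5 KO counts were at the background. The median log2 change of the 10 nearest genes was 0.14, -0.06 and -0.04 in the same order, and the lowest single value was -0.65, -0.74 and -1.11, that of Herc2 in each case, which encodes a large ubiquitin ligase.

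**Figure D3:**
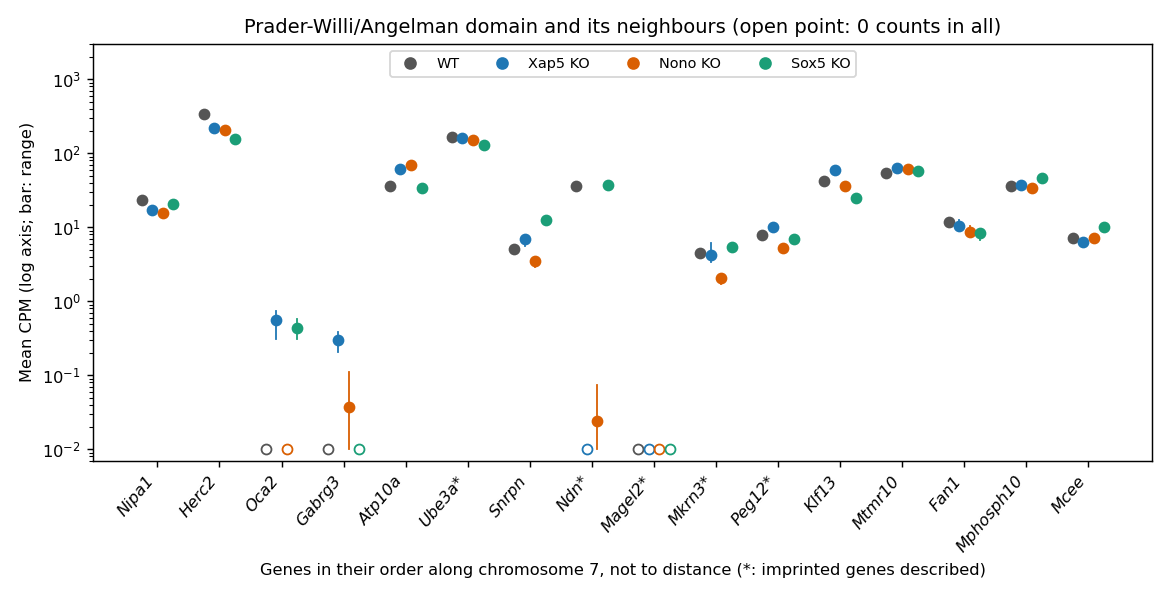
Mean CPM per genotype of the imprinted genes of the Prader-Willi/Angelman domain (starred) and their neighbours, in their order along chromosome 7, on a log axis with bars from the lowest to the highest library. Open points at the base stand for 0 counts in all libraries of a group. Ndn is the only starred gene that is read in WT and at the base or near it in Xap5 KO and Nono KO.

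The 250 bases upstream of the paternally expressed genes of the domain are shown because these neighbours, each with a promoter of its own, differed so much in their reads. Sequences are from RefSeq on GRCm38.p6, 5′ to 3′ toward the start of the gene, with every CG dinucleotide, the site of DNA methylation, in capitals.
Ndn (chr7:62348027-62348276, plus strand): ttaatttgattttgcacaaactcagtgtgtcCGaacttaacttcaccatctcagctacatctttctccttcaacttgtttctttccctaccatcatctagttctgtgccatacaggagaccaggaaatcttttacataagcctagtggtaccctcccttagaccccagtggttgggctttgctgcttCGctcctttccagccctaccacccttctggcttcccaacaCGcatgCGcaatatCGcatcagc
Magel2 (chr7:62376729-62376978, plus strand): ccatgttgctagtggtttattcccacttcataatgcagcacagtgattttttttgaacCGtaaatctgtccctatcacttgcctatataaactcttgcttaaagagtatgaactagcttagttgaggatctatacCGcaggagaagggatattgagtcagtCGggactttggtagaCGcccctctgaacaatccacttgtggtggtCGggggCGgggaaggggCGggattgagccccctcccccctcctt
Mkrn3 (chr7:62420154-62420403, minus strand): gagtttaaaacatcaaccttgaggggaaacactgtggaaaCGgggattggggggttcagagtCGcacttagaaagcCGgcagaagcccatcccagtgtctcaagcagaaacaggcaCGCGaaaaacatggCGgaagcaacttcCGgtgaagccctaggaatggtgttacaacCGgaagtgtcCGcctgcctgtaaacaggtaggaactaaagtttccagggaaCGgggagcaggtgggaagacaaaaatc
Peg12 (chr7:62464511-62464760, minus strand): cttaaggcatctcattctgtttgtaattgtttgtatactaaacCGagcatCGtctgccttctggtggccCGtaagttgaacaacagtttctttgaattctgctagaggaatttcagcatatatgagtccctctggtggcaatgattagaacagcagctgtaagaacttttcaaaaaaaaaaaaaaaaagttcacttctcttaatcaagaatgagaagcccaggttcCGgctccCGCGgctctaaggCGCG
Ndn had 5 CG dinucleotides in this window, Magel2 7, Mkrn3 10 and Peg12 8, against a median of 6 over 32851 RefSeq promoters of the same length. Methylation was not measured in these samples. The motif TGCCGC, which the imprint-keeping protein Zfp57 binds when it is methylated, was searched on both strands and was in none of the 4 windows. Of the 36 measured imprinted genes 30 matched this table, and 6 of them (Mest, Copg2, Nap1l5, Zim1, Osbpl5 and Plagl1) had the motif within 250 bases upstream of a start, beside 9.84% of all 27025 genes in it.

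Peg3 and Usp29 are paternally expressed neighbours on chromosome 7 that are transcribed away from each other. Peg3 encodes a zinc finger protein that takes part in growth and maternal behaviour, and Usp29 a deubiquitinase. Peg3 moved in opposite directions in the knockouts. It was at 105 and 95.3 CPM in WT, 276, 264 and 227 in the Xap5 knockout, 38.9, 42.9 and 36.9 in the Nono knockout and 189, 207 and 213 in the Sox5 knockout. None of the 4 groups overlapped with another. Peg3 rose in Xap5 KO with a log2 change of 1.35 (SE 0.0856, edgeR adjusted p = 1.26e-10) and in Sox5 KO with 1.02 (SE 0.0848, edgeR adjusted p = 2.87e-09). It fell in Nono KO with -1.34 (SE 0.0832, edgeR adjusted p = 6.26e-11), and Xap5 KO stood 6.46-fold above Nono KO (2.69, SE 0.0789, edgeR adjusted p = 1.2e-15).

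Usp29 had few counts and a wide spread. Its libraries held 36 and 25 counts in WT, 46, 110 and 69 in the Xap5 knockout, 8, 4 and 24 in the Nono knockout and 88, 52 and 83 in the Sox5 knockout. Its log2 change was 1.70 (SE 0.598, edgeR adjusted p = 0.0181) in Sox5 KO, and neither 1.36 (SE 0.592, edgeR adjusted p = 0.0661) in Xap5 KO nor -1.21 (SE 0.616, edgeR adjusted p = 0.114) in Nono KO was called. The Sox5 KO call was lost without WT replicate 2 (1.41, adjusted p = 0.127), Sox5 KO replicate 1 (1.59, 0.0577) or Sox5 KO replicate 3 (1.62, 0.0530), and Xap5 KO was called under DESeq2 (1.36, 0.0452) and with only the groups compared (1.35, 0.0478). Without 1 library the Xap5 KO value was called in 3 cases, without Xap5 KO replicate 1 (1.60, adjusted p = 0.0403), Nono KO replicate 2 (1.36, 0.0378) or Nono KO replicate 3 (1.36, 0.0278). The Nono KO value was called without that library (-2.28, adjusted p = 0.00533). Between knockouts, Usp29 was higher in Xap5 KO than in Nono KO (2.57, edgeR adjusted p = 0.000569) and lower there than in Sox5 KO (-2.91, edgeR adjusted p = 0.00012), and without Nono KO replicate 3 these values were 3.65 and -3.98. Zim1, a maternally expressed zinc finger gene of the cluster, had 16, 0 and 0 counts in Nono KO and 0 in all other libraries. The 250 bases upstream of Peg3 are shown because 163 of them also lie in the 250 bases upstream of Usp29, which starts 164 bases away on the opposite strand, and because this region is the known imprinting control region of the cluster.
Peg3 (chr7:6730420-6730669, minus strand): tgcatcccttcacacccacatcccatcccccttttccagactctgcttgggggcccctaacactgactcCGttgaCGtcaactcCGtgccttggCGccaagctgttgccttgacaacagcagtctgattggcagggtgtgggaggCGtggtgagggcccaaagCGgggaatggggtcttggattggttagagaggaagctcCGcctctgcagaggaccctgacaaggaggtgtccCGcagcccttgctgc
This window held 8 CG dinucleotides and no TGCCGC.

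Igf2, the fetal growth factor that is silent on the maternal copy in most tissues, was low in WT and read in every knockout. The WT libraries held 138 and 28 counts (3.42 and 0.635 CPM) and thus differed from each other. Its level was 47.9, 39.6 and 56.1 CPM in the Xap5 knockout, 37.2, 35.7 and 41.5 in the Nono knockout and 201, 244 and 246 in the Sox5 knockout. All knockout libraries lay above both WT libraries, and Sox5 KO lay above the other knockouts. The log2 change was 4.59 (SE 0.473, edgeR adjusted p = 0.00013) in the Xap5 knockout, 4.26 (SE 0.473, edgeR adjusted p = 0.000171) in the Nono knockout and 6.85 (SE 0.494, edgeR adjusted p = 7.63e-06) in the Sox5 knockout. Relative to Sox5 KO, Igf2 was lower in both others, with log2 differences of -2.27 (SE 0.304, edgeR adjusted p = 0.000329) for Xap5 KO and -2.59 (SE 0.308, edgeR adjusted p = 0.000154) for Nono KO, and the difference between Xap5 KO and Nono KO was not called (0.33, edgeR adjusted p = 0.404). The size rested on which WT library was used: without WT replicate 1 the values were 6.21, 5.90 and 8.48 in the order above, and without WT replicate 2 they were 3.80, 3.48 and 6.07, all called. Per kilobase, Igf2 reached 48.8 CPM per kb in Sox5 KO, the fifth highest level among the imprinted genes there. Gm49394 shares exons with Igf2 on the same strand and Igf2os overlaps it on the other, so some reads may belong to either, and Gm49394 was at a mean of 0.683 CPM in WT, 12.6 in the Xap5 knockout, 3.86 in the Nono knockout and 16 in the Sox5 knockout.

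Igf2r encodes the receptor that takes Igf2 up for breakdown, and it is maternally expressed. It was at 511 and 517 CPM in WT, 324, 309 and 326 in the Xap5 knockout, 424, 425 and 479 in the Nono knockout and 335, 409 and 384 in the Sox5 knockout. All knockout libraries lay below both WT libraries. Igf2r fell in Xap5 KO (-0.68, SE 0.0721, edgeR adjusted p = 1.11e-07) and Sox5 KO (-0.45, SE 0.0723, edgeR adjusted p = 1.5e-05). In Nono KO it fell with a log2 change of -0.22 (SE 0.0725, edgeR adjusted p = 0.018), a call that was lost without WT replicate 1 (-0.22, adjusted p = 0.0779), WT replicate 2 (-0.20, 0.114), Nono KO replicate 1 (-0.18, 0.0740) or Nono KO replicate 2 (-0.19, 0.0678).

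**Figure D4:**
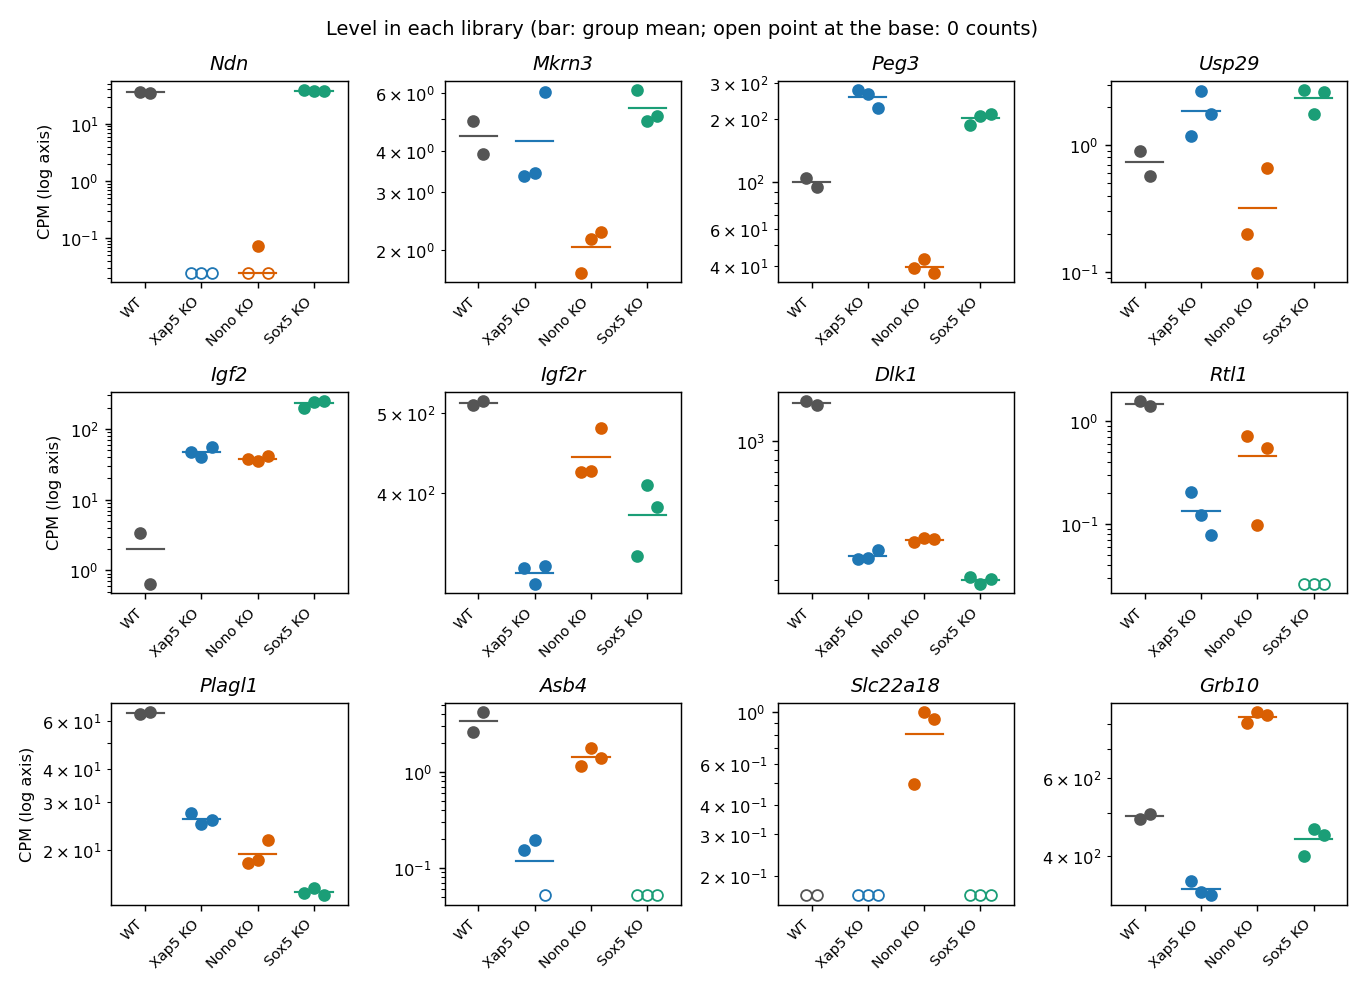
CPM of 12 imprinted genes in each library, 1 panel per gene on its own log axis, with bars for group means and open points at the base for 0 counts. Each panel shows whether the groups overlap: Peg3 is lowest in Nono KO and highest in Xap5 KO, while Dlk1 and Plagl1 are below WT in every knockout library.

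The Kcnq1 cluster, near the distal end of chromosome 7, held 8 measured genes. Cdkn1c, an inhibitor of cyclin-dependent kinases, and Phlda2, a growth regulator of the placenta, had 0 counts in all libraries. Slc22a18, a transporter gene, was detected in a single genotype, with 20, 41 and 34 counts (0.494, 0.999 and 0.939 CPM) in Nono KO and 0 in the other 8 libraries. It was at least 10.9-fold higher in Nono KO than in WT, against the floor of 3 counts per library (edgeR adjusted p = 0.00301), and also differed from Xap5 KO (edgeR adjusted p = 0.00071) and Sox5 KO (0.00079). Slc22a18 passed the filter on low counts only through Nono KO, so these calls are a description. Ascl2, a transcription factor of the trophoblast, had 4, 0 and 0 counts in Xap5 KO and 2, 11 and 0 in Sox5 KO and 0 in WT and Nono KO. The upstream window of Slc22a18 is shown for contrast with those above, since it held no CG dinucleotide at all.
Slc22a18 (chr7:143473539-143473788, plus strand): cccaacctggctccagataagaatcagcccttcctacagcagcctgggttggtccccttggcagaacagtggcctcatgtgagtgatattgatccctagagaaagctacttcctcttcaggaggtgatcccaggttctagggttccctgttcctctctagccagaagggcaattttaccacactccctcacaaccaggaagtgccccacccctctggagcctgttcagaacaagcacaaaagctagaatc

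The outer genes of the Kcnq1 cluster, which are imprinted in placenta, were read in all groups, and none of them changed by 2-fold. Osbpl5, a lipid transfer protein gene, rose in all 3 knockouts, from 48.9 and 50.1 CPM in WT to 70.6, 63.9 and 65.2 in the Xap5 knockout (0.43), 64.8, 72.2 and 65.9 in the Nono knockout (0.45) and 69.5, 75.9 and 70.1 in the Sox5 knockout (0.54), with edgeR adjusted p = 9.98e-05, 4.76e-05 and 3.45e-06. Cd81, which encodes a tetraspanin of the cell surface, rose in Sox5 KO (0.62, SE 0.0580, edgeR adjusted p = 6.87e-09) and was not called in the others. In Nono KO it was called at 0.13 under DESeq2 (adjusted p = 0.0441) and with only the groups compared (0.0413), and at 0.29 relative to its chromosome (0.000264). Tssc4, a splicing factor gene, fell in Nono KO (-0.45, edgeR adjusted p = 0.00209) and rose in Sox5 KO (0.46, 0.00134). Nap1l4, a histone chaperone gene, did likewise at -0.22 (0.00897) and 0.24 (0.00411). When each gene was taken relative to the median change of its own chromosome, which was -0.18 in Nono KO and 0.18 in Sox5 KO for chromosome 7, Tssc4 in Nono KO (-0.27, adjusted p = 0.0543) and Nap1l4 in Nono KO (-0.04, 0.642) and in Sox5 KO (0.05, 0.568) were no longer called. Without WT replicate 1, Nap1l4 in Nono KO was also no longer called (-0.21, adjusted p = 0.0616), and with scaling by library totals Nap1l4 in Sox5 KO was not (0.13, 0.119).

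Dlk1, on chromosome 12, had the highest level per length of the imprinted genes in WT and fell in every knockout. Dlk1 encodes a transmembrane relative of the Notch ligands that holds preadipocytes in an undifferentiated state. It was at 1590.0 and 1519 CPM in WT, 256, 258 and 283 in the Xap5 knockout, 312, 325 and 320.0 in the Nono knockout and 207, 189.9 and 201 in the Sox5 knockout. The 4 groups did not overlap, and the knockouts kept 17.1%, 20.5% and 12.8% of the WT mean. The log2 change was -2.55 (SE 0.0603, edgeR adjusted p = 5.28e-18) in the Xap5 knockout, -2.29 (SE 0.0599, edgeR adjusted p = 1.58e-17) in the Nono knockout and -2.96 (SE 0.0611, edgeR adjusted p = 7.58e-19) in the Sox5 knockout. Sox5 KO was also below Xap5 KO and Nono KO, which stood 1.33-fold and 1.60-fold above it (edgeR adjusted p = 1.17e-06 and 6.64e-10).

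Rtl1, a retrotransposon-derived gene of the same cluster that is needed in the placenta, was lower in the knockouts too. It had 63 and 62 counts in WT, 8, 5 and 3 in the Xap5 knockout, 29, 4 and 20 in the Nono knockout and 0, 0 and 0 in the Sox5 knockout. Its log2 change was -3.43 (SE 0.928, edgeR adjusted p = 0.00523) in Xap5 KO, and in Sox5 KO it was at least 14.6-fold lower than in WT (edgeR adjusted p = 5.49e-05). In Nono KO the value of -1.70 (SE 0.859, edgeR adjusted p = 0.112) was not called. Its exons overlap several microRNA genes, most of them on the opposite strand. Dio3, which inactivates thyroid hormone, had 0 counts everywhere. Begain, the gene just outside Dlk1 and imprinted in some tissues, fell in all 3 knockouts, with log2 changes of -2.04 (SE 0.233, edgeR adjusted p = 3.48e-07), -1.67 (SE 0.230, edgeR adjusted p = 3.67e-06) and -1.59 (SE 0.231, edgeR adjusted p = 4.3e-06) in the Xap5, Nono and Sox5 knockouts. The whole of chromosome 12 was lower in Sox5 KO, with a median log2 change of -0.75 over 447 tested genes, against -0.16 in Xap5 KO and 0 in Nono KO, and the change of Dlk1 in Sox5 KO was -2.19 (adjusted p = 3.34e-17) after an offset for it.

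Plagl1, a zinc finger gene on chromosome 10 that restrains the cell cycle, also fell in every knockout. It was at 63.9 and 64.6 CPM in WT, 27.3, 24.9 and 25.7 in the Xap5 knockout, 17.9, 18.4 and 21.8 in the Nono knockout and 13.8, 14.5 and 13.6 in the Sox5 knockout, and its 4 groups did not overlap. The log2 change was -1.31 (SE 0.0959, edgeR adjusted p = 4.28e-10), -1.73 (SE 0.0968, edgeR adjusted p = 3.58e-12) and -2.21 (SE 0.0991, edgeR adjusted p = 7.68e-14). The median of chromosome 10 was -0.46, -0.14 and -0.32, and after an offset for it the changes of Plagl1 were -0.83, -1.60 and -1.91, all called. Impact, which encodes an inhibitor of the Gcn2 stress kinase pathway, was at 405 and 382 CPM in WT, 294, 321 and 353 in the Xap5 knockout, 192, 193 and 198 in the Nono knockout and 289.9, 271 and 283 in the Sox5 knockout. All knockout libraries were below WT and those of Nono KO lowest, with log2 changes of -0.28 (SE 0.0661, edgeR adjusted p = 0.00139), -1.02 (SE 0.0658, edgeR adjusted p = 3.98e-11) and -0.48 (SE 0.0660, edgeR adjusted p = 1.87e-06).

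Grb10, an adaptor that dampens insulin and growth factor signalling, moved up in Nono KO and down in the others. It was at 485 and 499 CPM in WT, 350.1, 331 and 325 in the Xap5 knockout, 800.2, 848 and 838 in the Nono knockout and 400.5, 461 and 446 in the Sox5 knockout. The 4 groups did not overlap. Grb10 fell in Xap5 KO (-0.55, SE 0.0624, edgeR adjusted p = 3.04e-07) and rose in Nono KO (0.75, SE 0.0643, edgeR adjusted p = 3.45e-09), so that Nono KO stood 1.90-fold above Sox5 KO (edgeR adjusted p = 8.47e-12). In Sox5 KO it fell with a log2 change of -0.17 (SE 0.0628, edgeR adjusted p = 0.0212), which was lost without WT replicate 2 (-0.16, adjusted p = 0.128) or Sox5 KO replicate 1 (-0.12, 0.104). Grb10 was thus higher in Nono KO than in Xap5 KO, and Peg3 was higher in Xap5 KO than in Nono KO.

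On chromosome 6, Asb4, the substrate receptor of a ubiquitin ligase, was read in WT and at the floor in Sox5 KO. It had 105 and 183 counts in WT, 6, 8 and 0 in the Xap5 knockout, 47, 72 and 51 in the Nono knockout and 0, 0 and 0 in the Sox5 knockout. All knockout libraries were below both WT libraries. Asb4 fell in Xap5 KO (-4.81, SE 0.719, edgeR adjusted p = 1.96e-05, and -5.40 without Xap5 KO replicate 2) and was at least 33.2-fold lower in Sox5 KO (edgeR adjusted p = 5.37e-07). In Nono KO the log2 change of -1.23 (SE 0.603, edgeR adjusted p = 0.103) was not called, and it was called when only WT and Nono KO entered the fit (-1.21, adjusted p = 0.0119) or without Xap5 KO replicate 3 (-1.22, 0.0347). Its neighbours Peg10, a retrotransposon-derived gene of the placenta, Sgce, a sarcoglycan gene, and Ppp1r9a, which encodes an actin-binding regulator of protein phosphatase 1, had 0 to 9 counts in every library and were not tested.

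Mest, a hydrolase gene widely used as a marker of paternal expression in mesoderm, was low in all groups. It had 14 and 20 counts in WT, 10, 7 and 9 in the Xap5 knockout, 18, 7 and 10 in the Nono knockout and 17, 6 and 7 in the Sox5 knockout, and no knockout was called (edgeR adjusted p = 0.473, 0.726 and 0.777). Its log2 changes were -0.86 (SE 0.909), -0.43 (SE 0.901) and -0.33 (SE 0.909). Copg2, a coat protein gene that overlaps Mest on the opposite strand, fell in all 3 knockouts (-0.42, -0.40 and -0.57, edgeR adjusted p = 0.000347, 0.000463 and 5.54e-06). After an offset for the median of chromosome 6, which was -0.25, -0.19 and -0.35, Copg2 was no longer called in Xap5 KO (-0.15, adjusted p = 0.165) or Nono KO (-0.19, 0.0703). Nap1l5, a small histone chaperone gene inside an intron of Herc3, had 0 to 9 counts in every library and was not tested, while its host Herc3 was at 3.77 and 2.18 CPM in WT, 0.978, 2.34 and 1.65 in the Xap5 knockout, 1.14, 0.365 and 0.221 in the Nono knockout and 0, 0 and 0.0638 in the Sox5 knockout.

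On chromosome 2, Nnat, a small membrane protein gene of the developing brain, had its highest mean in WT. It had 70 and 133 counts in WT, 18, 45 and 73 in the Xap5 knockout, 72, 28 and 26 in the Nono knockout and 10, 22 and 13 in the Sox5 knockout. Xap5 KO and Nono KO overlapped with WT and were not called (-1.05 and -1.16, edgeR adjusted p = 0.15 and 0.108). Both were called without 1 library, Xap5 KO without its replicate 3 (-1.61, adjusted p = 0.046) and Nono KO without its replicate 1 (-1.76, 0.0311). In Sox5 KO, which did not overlap, Nnat fell with a log2 change of -2.28 (SE 0.613, edgeR adjusted p = 0.00295), a call that was lost without WT replicate 2 (-1.83, adjusted p = 0.0529). The 6 neuronal markers were also lowest in Sox5 KO, with a summed level of 0.309 to 0.447 CPM there, 13.4 to 18.8 in WT, 9.84 to 10.9 in Xap5 KO and 27.1 to 28.6 in Nono KO. Of them 2 were read in WT, 1 in the Xap5 knockout, 1 in the Nono knockout and 0 in the Sox5 knockout, where Tubb3, Snap25 and Elavl3 were at 0 counts, and their part in the result was not tested. In bulk RNA, fewer cells of a type and less RNA per cell cannot be told apart.

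Blcap, the host gene of Nnat with a role in cell growth, and Gnas, which encodes the stimulatory G protein alpha subunit, were read throughout. Blcap was called in Sox5 KO only (0.26, edgeR adjusted p = 0.00549), a call lost under scaling by library totals (0.14, adjusted p = 0.116) and relative to the median of its chromosome (0.11, 0.226). Gnas rose from 964 and 998 CPM in WT to 1204, 1189 and 1148 in Xap5 KO (0.27, edgeR adjusted p = 0.00068) and 1498, 1418 and 1371 in Sox5 KO (0.54, 5.67e-08), and was not called in Nono KO (-0.08, 0.293), where scaling by library totals gave a call (-0.24, 0.000909). Relative to chromosome 2 the change in Xap5 KO was 0.11 and not called (adjusted p = 0.139). H13, a signal peptide peptidase gene, fell in Sox5 KO (-0.27, edgeR adjusted p = 0.00232) and was at 0.00 in Xap5 KO and 0.05 in Nono KO, not called. Inpp5f, a phosphoinositide phosphatase gene on chromosome 7 with an imprinted short transcript, fell in Nono KO (-0.57, SE 0.110, edgeR adjusted p = 0.000204) and was not called in the others, except without Xap5 KO replicate 1 (-0.31 in Xap5 KO, adjusted p = 0.0346) and relative to its chromosome (-0.30 in Sox5 KO, 0.0238). The gene counts sum all transcripts of Blcap, Gnas, H13 and Inpp5f, so their imprinted transcripts were not measured apart from the rest.

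Between knockouts, 15 of the 26 tested genes differed between Xap5 KO and Nono KO (57.7%, beside 53.0% of all tested genes), 17 between Xap5 KO and Sox5 KO (65.4%, beside 61.6%) and 22 between Nono KO and Sox5 KO (84.6%, beside 63.5%). In the direction named first, 10 were higher and 5 lower (27.1% and 25.9% of all tested genes), 9 and 8 (31.1% and 30.4%), and 9 and 13 (30.9% and 32.6%). By the fitted value, 6, 4 and 8 genes differed by at least 2-fold, beside 11.1%, 15% and 17% of all tested genes, and the 4 of 26 (15.4%) between Xap5 KO and Sox5 KO were at that background. Those between Xap5 KO and Nono KO were Mkrn3, Peg3, Usp29, Slc22a18, Asb4 and Grb10. Those between Xap5 KO and Sox5 KO were Ndn and Igf2, and by the fitted value alone Rtl1 and Asb4, whose counts in Sox5 KO were all 0 and whose lower bounds were 1.33-fold and 1.14-fold. Those between Nono KO and Sox5 KO were Ndn, Mkrn3, Peg3, Usp29, Igf2, Slc22a18, Rtl1 and Asb4. The Asb4 libraries of Xap5 KO and Sox5 KO overlapped, and the call between them was lost with only these groups in the fit (edgeR adjusted p = 0.0782). Those of Nono KO and Sox5 KO did not overlap (edgeR adjusted p = 3.39e-06). Ndn and Igf2 thus separated Sox5 KO from both other knockouts, and Peg3, Usp29, Mkrn3 and Slc22a18 separated Nono KO from both others.

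The proteins that keep, set and erase imprints were taken from lists of known regulators. Of 22 genes that keep imprints, 21 were tested, and 6 were higher and 6 lower in Xap5 KO (57.1%), 3 higher and 13 lower in Nono KO (76.2%) and 3 higher and 10 lower in Sox5 KO (61.9%), beside 45.5%, 48.6% and 60.9% of all tested genes, with medians of 0.04, -0.22 and -0.16. Dnmt1, the maintenance DNA methyltransferase, was the only one of the 21 that was called higher in all 3 knockouts (0.71, 0.33 and 0.25, edgeR adjusted p = 3.73e-05, 0.0139 and 0.0418). Smchd1 and Arid4a went the other way and were called lower in all 3. The changes of Smchd1 were -0.41, -0.18 and -0.82 (edgeR adjusted p = 2.05e-05, 0.0267 and 3.94e-10). Those of Arid4a in Xap5 KO and Nono KO were -0.36 and -0.29 (edgeR adjusted p = 0.00544 and 0.0194). Arid4a, a chromatin factor known from the Prader-Willi/Angelman domain, was the only one of the 21 to change by 2-fold against WT, with -1.08 (SE 0.0997, edgeR adjusted p = 6.55e-09) in Sox5 KO. Of 10 genes that set or erase imprints, 9 were tested, with 2 higher and 4 lower in Xap5 KO, 2 higher and 4 lower in Nono KO and 0 higher and 5 lower in Sox5 KO. These are 66.7%, 66.7% and 55.6%, the last below the share of all tested genes. Dnmt3a, a DNA methyltransferase that sets imprints, was at 44.3 and 40.6 CPM in WT, 74.2, 77.5 and 79.7 in the Xap5 knockout, 54.6, 50.8 and 60.6 in the Nono knockout and 18, 18.7 and 18.2 in the Sox5 knockout. It rose in Xap5 KO (0.86, edgeR adjusted p = 5.48e-08) and Nono KO (0.38, 0.000867) and fell in Sox5 KO (-1.21, 1.16e-10). None of the Sox5 KO libraries overlapped with another group. The demethylating enzymes Tet1, Tet2 and Tet3 fell in Sox5 KO with log2 changes of -1.34, -1.18 and -1.28 (edgeR adjusted p = 2.09e-09, 2.99e-08 and 5.72e-11). They also fell in Xap5 KO (-0.72, -0.61 and -0.42, edgeR adjusted p = 2.27e-05, 0.000246 and 0.000485), and Tet2 and Tet3 in Nono KO (-0.95 and -0.62, 1.08e-06 and 4.32e-06), where Tet1 was not called (-0.15, 0.282). Dnmt3l, the cofactor of Dnmt3a in germ cells, fell in Xap5 KO (-1.73, SE 0.617, edgeR adjusted p = 0.0272) from 1.79 and 0.522 CPM in WT to 0.515, 0.341 and 0.180.

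A list of 41 further genes reported as imprinted in mouse had 36 in the table and 23 tested. Of these, 9 were higher and 6 lower in Xap5 KO (65.2%), 7 higher and 5 lower in Nono KO (52.2%), and 11 higher and 7 lower in Sox5 KO (78.3%), beside the same 45.5%, 48.6% and 60.9%, with medians of -0.06, 0.06 and 0.44. Smoc1, which encodes a secreted calcium-binding matrix protein, fell in all 3, from 20.1 and 17.7 CPM in WT, with log2 changes of -1.10, -2.43 and -2.76 (edgeR adjusted p = 1.16e-05, 1.5e-10 and 1.66e-11). Slc38a4, an amino acid transporter gene expressed from the paternal copy, rose in all 3, by 0.35, 1.28 and 1.42 (edgeR adjusted p = 0.00366, 3.07e-10 and 3.68e-11). Dhcr7, a cholesterol synthesis gene beyond the Kcnq1 cluster, rose by 0.72, 0.83 and 1.83 (edgeR adjusted p = 1.01e-06, 1.09e-07 and 3.88e-13). Tspan32, a tetraspanin gene of blood cells inside the Kcnq1 cluster, had 0 and 4 counts in WT and 23, 39 and 38 in the Xap5 knockout, 139, 110 and 136 in the Nono knockout and 41, 55 and 31 in the Sox5 knockout, and was called in all 3 (edgeR adjusted p = 9.93e-05, 5.01e-07 and 6.93e-06). Of 7 leukocyte markers, 4 were read in Nono KO with a summed level of 13.1 to 18.6 CPM, and 3 in Sox5 KO with 12 to 13.2, an overlapping range. In WT 2 of 7 were read with 8.14 to 8.92 CPM, and in Xap5 KO 2 with 10.2 to 12.4. Of 6 tested, 1 was called higher and 1 lower in Nono KO than in Sox5 KO. Adgre1 was at 0 counts in WT and Sox5 KO, and the part of these markers in the result was not tested. Cpa4, a carboxypeptidase gene near Mest, was at 12, 33 and 21 counts in Nono KO, and 0 and 2 in WT and 0 in the other 6 libraries, a ratio of 23.6-fold, with a 95% counting interval of 6.29 to 199 between Nono KO and WT (edgeR adjusted p = 0.0281). Cpa4 passed the filter on low counts only through Nono KO, and Tspan32 only through the knockouts, so the calls of both are a description. Pon2, a lactonase gene, and Mcts2, a translation factor gene made by retrotransposition, rose by at least 2-fold in Sox5 KO (1.27 and 1.59, edgeR adjusted p = 6.49e-10 and 4.37e-07), and reads of Mcts2 may come from its parent gene. Dcn, the matrix proteoglycan decorin and also a marker on the fibroblast list, fell in Xap5 KO (-0.51) and rose in Nono KO (1.17) and Sox5 KO (0.66), with edgeR adjusted p = 8.54e-07, 3.6e-12 and 1.4e-08. Ddc, which encodes a decarboxylase of dopamine synthesis, had 8 and 0 counts in WT and 0 in Xap5 KO, at least 1.28-fold lower, so that a 2-fold change was not shown (edgeR adjusted p = 0.048). Herc3, a ubiquitin ligase gene, was lower in Nono KO (-2.36, edgeR adjusted p = 0.00357) and, by a ratio of 137-fold, with a 95% counting interval of 37.5 to 1137, in Sox5 KO (edgeR adjusted p = 1.33e-06).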

How the data were processed

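Gene-level RNA-seq values of 11 libraries were analysed. Per the submitters' processing notes, HISAT2 2.1.0, StringTie 1.3.3b and DESeq2 1.12.4 and the build GRCm39 were used, and per the labels' protocols the libraries were made with a NEBNext Ultra II RNA kit. Strand handling is not given in the sources used here, so antisense partners cannot be told apart. The authors deposited whole numbers per gene, taken as estimated counts that were rounded, since 3302 entries were 2 and just 857 were 1, and they were used as they stand.

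All 11 libraries were fitted together in edgeR 4.0.16 (R 4.3.3) with 1 mean per genotype, TMM factors and the robust quasi-likelihood test. The expression filter (minimum count 10, minimum total 15) kept 13332 genes, p-values were adjusted by Benjamini-Hochberg over all of them, and the threshold for a call was 0.05. The edgeR code was tested on simulated data. CPM uses TMM-scaled library sizes. With a group at 0 counts a fold is a lower bound against 3 counts in the library where that floor is highest, and with 1 to 3 counts it is a ratio with a 95% exact (Clopper-Pearson) counting interval. Intervals and floors cover counting error only. The depth of 30205878 to 43498383 counts and a biological coefficient of variation of 10.6% set the precision.

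Every imprinted gene with a row was named, with per-library values for those called at 2-fold in at least 1 knockout or at the floor in some but not all groups. Other genes came from lists of imprint regulators and further imprinted genes, named if called with a fitted change of 2-fold, from the 5 nearest tested genes on each side of a cluster, and from marker lists. Dnmt1, Smchd1, Cars, Tnfrsf22 and Tnfrsf23 fall outside this rule and were named after their values were seen. The imprinted genes and the lists were chosen with earlier results of these data known. The reference annotation (GENCODE M21, GRCm38) is of another build than the data, so it served only for gene order, overlap, length and chromosome. Endothelial, skeletal muscle, germ and pluripotent markers are described in the closing section. Alternatives were DESeq2 1.42.0, scaling by library totals, no filter, a 2-fold requirement, only the groups compared, a replicate block, a chromosome offset, and leaving out each library.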

Additional observations from a re-analysis of the deposited data

How the results depend on the processing

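Among the fold changes of single imprinted genes, 91 kept direction and call under DESeq2 and 3 did not, 84 did with scaling by library totals, 92 without the filter, 88 with only the groups compared and 80 with the chromosome offset, which lost 7 calls. With that offset the higher and lower counts were 3 and 8 in Xap5 KO, 5 and 9 in Nono KO and 7 and 12 in Sox5 KO. Of all tested genes, 5201, 5947 and 7720 were then called. The offset also took Peg3 in Sox5 KO (0.83), Mkrn3 in Nono KO (-0.94) and Impact in Nono KO (-0.89) below 2-fold. Between knockouts 16, 16 and 18 genes differed with it. With at least a 2-fold fitted change required, the higher and lower counts were 2 and 5 in the Xap5 knockout, 2 and 6 in the Nono knockout and 3 and 5 in the Sox5 knockout, and 6, 4 and 8 genes differed in the knockout comparisons named above. Leaving out 1 library at a time, the counts ranged from 4 to 5 higher and 9 to 10 lower in Xap5 KO, stayed at 4 higher with 9 to 13 lower in Nono KO, and ranged from 8 to 9 higher and 9 to 11 lower in Sox5 KO. The knockout comparisons ranged from 14 to 16, 17 to 19 and 21 to 23.

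Changes of sign concerned values near 0. Blcap in Xap5 KO was at -0.04 with library totals, -3e-05 without the filter, -0.0013 with only the groups compared and -0.14 with the chromosome offset, and H13 in Xap5 KO at -0.0082 with DESeq2, -0.05 with totals, -0.009 without the filter, -0.01 with only the groups compared and -0.15 with the offset. With totals, Cd81, Blcap and H13 in Nono KO were at -0.05, -0.10 and -0.12 and Ndn in Sox5 KO at -0.04. With the offset, Ube3a in Nono KO was at 0.07, and Ndn and Mest in Sox5 KO at -0.11 and 0.02. Leaving out 1 library, values in Xap5 KO ranged from -0.39 to 0.11 (Mkrn3), -0.05 to 0.02 (Ube3a), -0.02 to 0.02 (Blcap) and -0.08 to 0.05 (H13). Scaling by totals moved the median of all tested genes to -0.05, -0.18 and -0.12 in the Xap5, Nono and Sox5 knockouts. The cause of these changes was not tested.

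No pairing by replicate number was seen: deviations of same-numbered libraries correlated at -0.023 to 0.046 over 15 pairs, none above 0.1. With so few libraries per group, these values cannot show that no culture or batch was shared. With the replicate block, 5916, 6340 and 7911 of all genes, against 6064, 6476 and 8121 without it, were called in the Xap5, Nono and Sox5 knockouts, no call among the values of imprinted genes changed, and Blcap in Xap5 KO turned to -0.007.

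Genes with few counts, such as Mest, Usp29 and Rtl1, are limited by depth, and values against WT by its 2 libraries.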

Other observations

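Of the 10 tested genes nearest to the Kcnq1 cluster, 8 were higher and 0 lower in Sox5 KO, and 5 were higher and 1 lower in each of Xap5 KO and Nono KO. Over all tested genes 30.6%, 23.2% and 23.5% were higher in these knockouts. The 10 include Gm49394, which shares exons with Igf2, and no test was made of the difference from other genes. Cars, which encodes the transfer RNA ligase for cysteine and lies inside the cluster, was at a mean of 39.9 CPM in WT, 67.7 in the Xap5 knockout, 73.8 in the Nono knockout and 123 in the Sox5 knockout, with log2 changes of 0.76 (edgeR adjusted p = 1.53e-08), 0.89 (edgeR adjusted p = 1.11e-09) and 1.63 (edgeR adjusted p = 6.29e-14). Ctsd, the lysosomal protease cathepsin D, rose in Sox5 KO by 1.03 (edgeR adjusted p = 4.21e-12). Tnfrsf23, a decoy receptor for the ligand Trail, rose in Xap5 KO (0.45, edgeR adjusted p = 2.76e-05) and Sox5 KO (0.93, edgeR adjusted p = 4.71e-10), and Tnfrsf22 beside it fell in Nono KO (-0.65, edgeR adjusted p = 5.22e-06) and rose in Sox5 KO (0.76, edgeR adjusted p = 4.68e-07).

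Near the Peg3 cluster, the olfactory receptor gene Or10am5 had a mean of 0 CPM in WT and Nono KO, 3.87 CPM in Xap5 KO (edgeR adjusted p = 1.02e-06) and 0.0329 CPM in Sox5 KO. Or10am5 passed the filter on low counts only through Xap5 KO, so its call is a description. Beside the Nap1l5 locus, Tnip3, an inhibitor of NF-kB signalling, had 0 CPM in WT and a mean of 1.93 CPM in the Xap5 knockout, 0.771 in the Nono knockout and 0.754 in the Sox5 knockout. Tnip3 passed the filter only through the knockouts, so its calls are a description too. Of the 10 tested genes nearest to that locus, Tnip3 was the 1 higher and 4 were lower in Xap5 KO. In Sox5 KO Tnip3 was again the 1 higher and 8 were lower, and in Nono KO 2 were higher and 3 lower. Over all tested genes 22.3%, 30.3% and 25.1% were lower in the Xap5, Sox5 and Nono knockouts, and 23.2%, 30.6% and 23.5% higher. Next to Dlk1 and Dio3, 7 of 10 neighbours were lower and 0 higher in Sox5 KO, beside 30.3% of all tested genes lower, and their median of -0.67 was no lower than the -0.75 of chromosome 12 as a whole. The dynein heavy chain gene Dync1h1 was at -1.76 (edgeR adjusted p = 5.36e-16).

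Of 6 endothelial markers, 1 was read in Nono KO and 0 in the other groups. Of 6 skeletal muscle markers, 1 was read in each of Xap5 KO and Sox5 KO and 0 in WT and Nono KO. None of 6 germ and pluripotent markers was read in any group.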
